A study of Mus musculus with 54 samples.

Results

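Voltage-gated sodium and calcium channels were followed across 3 brain tissues of 6 inbred mouse strains, by all genes whose symbol in the array's annotation begins with Scn and a digit or with Cacna, Cacnb or Cacng. The rule used names only, and it found 35 genes of the 18193 with a named probe set. They comprise 8 sodium channel alpha subunits, 3 sodium channel beta subunits, 7 high voltage activated and 2 low voltage activated calcium channel alpha1 subunits, 4 alpha2delta subunits, 3 calcium channel beta subunits and 8 gamma subunits or their relatives. Each gene is represented by its brightest probe set. Scn4a, Cacna1i and Cacnb3 were not analysed here.

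The tissues were hippocampus, striatum and brainstem of male mice, with C57BL6/J as the reference strain here beside C57L/J, C57BLKS/J, C57BL10/J, BalbC/J and C3H HeJ. All mice were 60 days old when killed, and the labels name no transgene or drug. In each strain and tissue 1 array held RNA of 3 pooled mice that had been tested for prepulse inhibition at day 50, and 2 arrays held RNA of 3 pooled untested mice each. In that test a quiet tone just before a loud one makes the animal startle less. This gives 18 arrays per tissue and 54 in all. Pools hide the spread between single mice, and the tissues of a strain came from the same 12 mice, so p-values measure the spread between these pools and are not exact across tissues.

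Voltage-gated sodium channels open within a fraction of a millisecond when a neuron depolarizes and carry the rising phase of the action potential. The alpha subunit forms the pore, and the beta subunits set its gating and its place in the membrane. Calcium channels couple depolarization to transmitter release, to firing patterns and to gene expression; their alpha1 subunit forms the pore, the intracellular beta and the extracellular alpha2delta subunits bring it to the surface, and several proteins of the gamma family instead bind AMPA-type glutamate receptors and are called TARPs.

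Promoters are shown for the 3 members on which the tissue and strain results turn most or whose neighbour offers a contrast. Of the 35 members, 27 had a promoter window in the RefSeq table for build GRCm38.p6, from 250 bases before to 50 after a transcript start, and 19 had a single window. The windows below are printed 5′ to 3′ on the plus strand, the strand of all 3 genes, with every CG dinucleotide in capitals. Scn4b lies at chr9:45138374-45138673 and its neighbour Scn2b, the next protein-coding gene on that chromosome, at chr9:45117626-45117925. Cacng6 lies at chr7:3424412-3424711.
Scn4b: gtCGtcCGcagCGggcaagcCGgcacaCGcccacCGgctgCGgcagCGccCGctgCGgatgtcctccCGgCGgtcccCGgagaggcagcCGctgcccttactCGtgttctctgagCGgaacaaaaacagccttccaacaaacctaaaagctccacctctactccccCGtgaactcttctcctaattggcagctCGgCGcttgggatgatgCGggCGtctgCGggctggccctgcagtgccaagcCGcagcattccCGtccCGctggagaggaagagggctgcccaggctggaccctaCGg
Scn2b: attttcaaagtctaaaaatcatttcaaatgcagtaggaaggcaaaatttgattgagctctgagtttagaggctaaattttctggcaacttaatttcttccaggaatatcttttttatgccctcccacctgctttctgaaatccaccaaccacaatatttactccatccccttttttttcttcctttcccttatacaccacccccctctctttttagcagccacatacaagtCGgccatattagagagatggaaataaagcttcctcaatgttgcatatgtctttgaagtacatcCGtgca
Cacng6: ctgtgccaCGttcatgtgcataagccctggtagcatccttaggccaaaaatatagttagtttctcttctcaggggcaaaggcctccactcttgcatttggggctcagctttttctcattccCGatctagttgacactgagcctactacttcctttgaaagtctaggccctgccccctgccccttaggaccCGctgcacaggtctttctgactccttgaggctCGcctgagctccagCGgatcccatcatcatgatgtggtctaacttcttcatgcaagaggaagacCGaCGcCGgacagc
The Scn4b window holds 26 CG dinucleotides, more than 83.1% of the 32851 windows in the table. The Scn2b window holds 2, more than 14.1% of them, and the Cacng6 window holds 8, more than 51.4%. The TATA box was searched on either strand as TATAAA and was found in 13.62% of all windows and in 5.41% of the 37 windows of members. The GC box, spelled GGGCGG, was found in 35.66% of all windows and in 37.84% of the members' windows. The cAMP response element, TGACGTCA, was found in 1.79% and 0% of them. None of the 3 motifs is in the 3 windows printed here. A match or its lack describes these letters only.

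Signals are on a log2 scale, so a difference of 1 is a 2-fold difference. Array medians lay between 4.52 and 4.72 in hippocampus, 4.17 and 4.31 in striatum and 4.43 and 4.57 in brainstem, and a gene was tested when its signal passed the array's 40th percentile (3.12 to 3.47) on at least 3 arrays. The neuron marker lists of the 3 tissues were each highest in the tissue they name. The mean log2 signal of 7 striatal neuron markers had a median of 13.61 in striatum against 6.83 in hippocampus and 7.26 in brainstem. The 9 hippocampal markers had 10.66 in hippocampus against 6.14 and 6.53, and the 9 brainstem neuron markers 9.66 in brainstem against 3.48 and 3.18. The 10 cerebellar markers were also highest in brainstem, with a median of 9.35 against 6.07 in hippocampus and 4.58 in striatum. Their part in the brainstem levels below was not tested. The second untested C3H HeJ brainstem array stood apart: its 10 cerebellar markers exceeded the median of the tissue by 4.29, where the other C3H HeJ arrays had 0.31 and -0.15. On 3 striatum arrays (both untested C57L/J arrays and the tested BalbC/J array) the 7 thalamic markers exceeded the striatum median by 0.65 to 1.06, where the other 15 had -0.16 to 0.23. In tissue RNA, fewer cells of a type and less RNA per cell cannot be told apart.

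Of the 35 members, the same 28 were tested in each tissue. The other 7 stayed at or below the 40th percentile on nearly all arrays: Cacna1f (the retinal L-type channel), Cacna1s (the skeletal muscle L-type channel), Cacng1 (its gamma subunit), Cacng7 and Cacng8 (TARP family members), and Scn10a and Scn11a (channels of pain-sensing neurons). None of them passed that level on any array, except Scn11a on 1 brainstem array. A probe set this dim has no measured level here, which is not a sign that the gene was silent. Signals of different probe sets are not comparable as amounts. As a description, the brightest members by their mean over 54 arrays were Scn2a, Cacnb4, Scn2b, Scn8a and Cacna2d3, and the dimmest were Cacna1f, Cacng1, Cacng7, Cacng8 and Cacna1s.

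Tissue set the level of nearly every channel gene measured, as it did for nearly all genes. Between hippocampus and striatum 25 of 28 members differed (limma, adjusted p under 0.05), beside 87.1% of all genes tested. Between hippocampus and brainstem 25 differed, beside 85.4%, and between striatum and brainstem 27, beside 89.1%. By direction, 17 of the 27 were higher in striatum than in brainstem and 10 lower, while 29.0% of all genes were higher in striatum and 60.1% lower. The median striatum minus brainstem difference was 0.93 over the members and -0.30 over all genes. Against brainstem, hippocampus had 16 members higher and 9 lower (40.5% and 44.9% of all genes), with medians of 0.46 and -0.01. Between hippocampus and striatum, 13 were higher in hippocampus and 12 lower (63.3% and 23.8% of all genes), with medians of 0.04 and 0.24. This last split moved with the scaling, to 11 higher and 15 lower after quantile normalization and 9 higher and 15 lower after centring arrays on their medians. Those scalings moved the median of all genes from 0.24 to -0.01 and -0.12 between hippocampus and striatum, and from -0.30 to -0.10 and -0.05 between striatum and brainstem. Against brainstem no member's called direction turned under either.

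**Figure D1:**
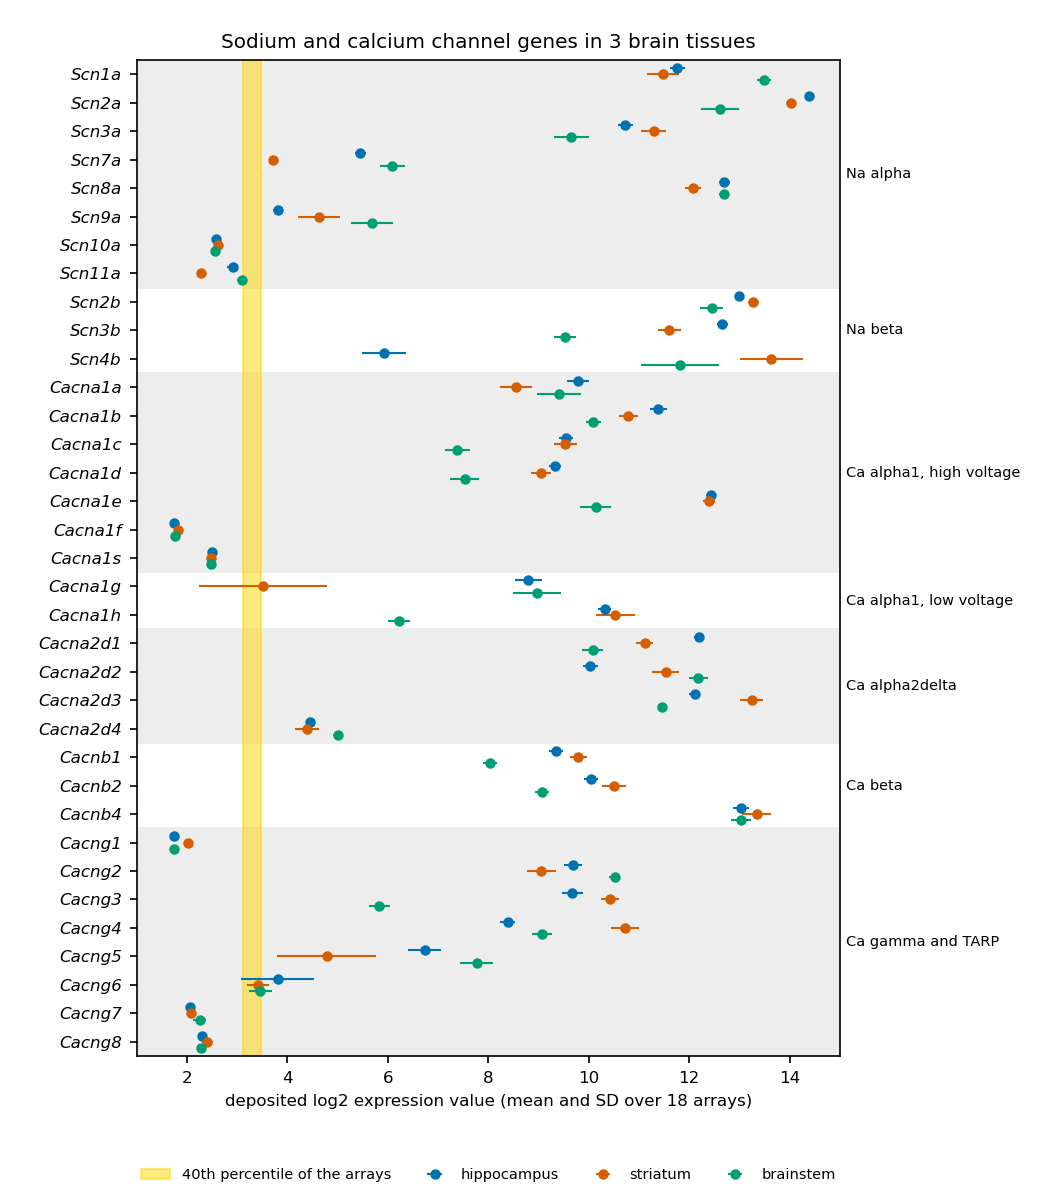
Mean log2 signal of each of the 35 members in hippocampus, striatum and brainstem, grouped by subunit class. Bars are the SD over 18 arrays and the band marks the range of the arrays' 40th percentiles (3.12 to 3.47). Scn4b and Cacna1g have the widest spacing between tissues, and the 7 untested members lie at or below the band.

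The 28 tested members fell into a few orders over the tissues. The share of all genes in each order was not taken, so these counts only describe the members. In 14 of them both forebrain tissues were above brainstem: Scn2a, Scn3a, Scn2b, Scn3b, Cacna1b, Cacna1c, Cacna1d, Cacna1e, Cacna1h, Cacna2d1, Cacna2d3, Cacnb1, Cacnb2 and Cacng3. In 7, Scn1a, Scn7a, Scn9a, Cacna2d2, Cacna2d4, Cacng2 and Cacng5, brainstem was above both. Striatum was above both others in Scn4b, Cacnb4 and Cacng4, and below both in Scn8a, Cacna1a and Cacna1g. Cacng6 had its highest mean in hippocampus, with no call between striatum and brainstem in the deposited scaling. Its striatum minus brainstem difference of -0.04 became 0.09 (limma adjusted p = 0.0447) after quantile normalization and 0.21 (limma adjusted p = 2.69e-05) after median centring.

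Among the sodium channel alpha subunits, the main neuronal pore genes had opposite orders. Scn1a, the channel that inhibitory interneurons rely on, was highest in brainstem at 13.49 ± 0.13 (SD, n = 18), against 11.77 ± 0.16 in hippocampus and 11.48 ± 0.32 in striatum. Its brainstem arrays (13.08 to 13.65) did not overlap those of the forebrain tissues (11.07 to 12.42). Scn2a, a channel of excitatory neurons and their axons, had 14.39 ± 0.08 in hippocampus, 14.02 ± 0.09 in striatum and 12.61 ± 0.38 in brainstem. Its brainstem arrays reached 14.05, and the highest is the C3H HeJ array with cerebellar markers. Scn3a, prominent in the developing brain, followed the order striatum 11.29 ± 0.25, hippocampus 10.73 ± 0.14, brainstem 9.65 ± 0.34. Scn8a, the channel of nodes of Ranvier and axon initial segments, varied least in this class, at 12.70 ± 0.11, 12.08 ± 0.16 and 12.68 ± 0.09 in hippocampus, striatum and brainstem, with no call between the first and the last. The hippocampus minus striatum differences of Scn1a and Scn2a are small, 0.29 and 0.37. Under median centring that of Scn1a turned and that of Scn2a was no longer called, and under quantile normalization that of Scn1a was not called. Scn7a, an atypical channel that senses sodium in circumventricular organs, was 6.09 ± 0.26 in brainstem, 5.45 ± 0.11 in hippocampus and 3.72 ± 0.06 in striatum, 5.19-fold lower in striatum than in brainstem. Scn9a, best known from peripheral sensory neurons, was 5.68 ± 0.42 in brainstem, 4.63 ± 0.42 in striatum and 3.81 ± 0.08 in hippocampus.

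The sodium channel beta subunits held the largest tissue difference of all members. Scn4b encodes the beta subunit whose cytoplasmic tail can act as the open-channel blocker behind resurgent sodium current. Its signal was 5.93 ± 0.43 in hippocampus (lowest 5.25, median 5.82, highest 6.94), 13.64 ± 0.63 in striatum (12.11, 13.97 and 14.26) and 11.81 ± 0.77 in brainstem (10.12, 12.27 and 12.43). Every striatum and brainstem array was above every hippocampus array. The hippocampus minus striatum difference was -7.71 (SE 0.073), which is 209-fold (limma, adjusted p = 1.67e-44), and hippocampus lay 59.2-fold below brainstem. Its neighbour Scn2b, a subunit linked to alpha subunits by a disulfide bond, differed far less, at 12.99 ± 0.05, 13.28 ± 0.11 and 12.44 ± 0.23 in hippocampus, striatum and brainstem. Scn3b, a beta subunit prominent in forebrain, fell in the order 12.66 ± 0.12 in hippocampus, 11.60 ± 0.22 in striatum and 9.53 ± 0.22 in brainstem, with an 8.74-fold difference between the outer tissues.

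All 5 tested high voltage activated alpha1 subunits were higher in hippocampus than in brainstem, and 4 of 5 were higher in striatum than in brainstem. Of all genes, 40.5% and 29.0% were called higher in these comparisons. Cacna1e, the R-type pore, had 12.43 ± 0.08 in hippocampus and 12.40 ± 0.12 in striatum, which were not called different in the deposited scaling, and 10.14 ± 0.31 in brainstem. Cacna1c, an L-type pore that couples to gene expression, had 9.54 ± 0.14, 9.54 ± 0.22 and 7.39 ± 0.24, and its hippocampus minus brainstem difference was 4.46-fold. Both were called lower in hippocampus than in striatum under the other scalings: Cacna1e by -0.20 and -0.33 and Cacna1c by -0.25 and -0.36, after quantile normalization and median centring. Cacna1d, the L-type pore that opens at lower voltages, had 9.32 ± 0.12, 9.04 ± 0.20 and 7.53 ± 0.29, and its hippocampus minus striatum difference turned under median centring. Cacna1b, the N-type pore of transmitter release, stepped down from 11.38 ± 0.17 to 10.79 ± 0.18 and 10.09 ± 0.15 in hippocampus, striatum and brainstem. Cacna1a, the P/Q-type pore of most central synapses, was the exception in this class, since striatum (8.55 ± 0.31) was below brainstem (9.41 ± 0.44) and hippocampus (9.79 ± 0.22). Its next brightest probe set was called in the opposite direction between striatum and brainstem.

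The low voltage activated (T-type) pores, which drive burst firing, had opposite orders. Cacna1g was 8.80 ± 0.26 in hippocampus (8.49 to 9.30) and 8.97 ± 0.48 in brainstem (8.31 to 10.67), with no call between them. In striatum it was 3.51 ± 1.27 (lowest 2.53, median 2.95, highest 6.33) and passed the 40th percentile on 7 of 18 arrays. Striatum was 39.0-fold below hippocampus and 44.0-fold below brainstem, or 57-fold and 64.3-fold below them without the 3 striatum arrays with high thalamic markers. With most striatum arrays at background, these folds depend on where the background lies. Cacna1h was 10.53 ± 0.39 in striatum and 10.32 ± 0.13 in hippocampus against 6.22 ± 0.21 in brainstem, 19.7-fold and 17.0-fold higher than brainstem, and its forebrain arrays (9.23 to 11.02) did not overlap the brainstem arrays (5.58 to 6.48).

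The alpha2delta subunits split. Cacna2d1, a binding site of gabapentin, was highest in hippocampus at 12.19 ± 0.09, with 11.11 ± 0.17 in striatum and 10.08 ± 0.21 in brainstem. Cacna2d2, the other gabapentin-binding subunit, ran the other way, from 10.03 ± 0.15 in hippocampus over 11.53 ± 0.27 in striatum to 12.18 ± 0.18 in brainstem. Their hippocampus minus brainstem differences were 2.11 and -2.15, each with arrays of the outer tissues that did not overlap. Cacna2d3 was highest in striatum at 13.25 ± 0.23, with 12.11 ± 0.12 in hippocampus and 11.47 ± 0.09 in brainstem. Cacna2d4, known from retina, stayed dim at 4.45 ± 0.06, 4.40 ± 0.24 and 5.00 ± 0.10 in hippocampus, striatum and brainstem, and its striatum minus brainstem difference of -0.60 was among the 3 smallest of the called members in the deposited scaling when each is taken between its outer tissues.

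All 3 calcium channel beta subunits were highest in striatum. Of all genes, 23.8% were called higher in striatum than in hippocampus and 29.0% higher in striatum than in brainstem. The share highest in striatum against both was not taken. Cacnb1 had 9.80 ± 0.17 there, 9.35 ± 0.14 in hippocampus and 8.04 ± 0.14 in brainstem, and Cacnb2 had 10.51 ± 0.24, 10.05 ± 0.13 and 9.07 ± 0.13. Cacnb4, the subunit mutated in the lethargic mouse, differed least of all called members in the deposited scaling: 13.34 ± 0.29 in striatum against 13.04 ± 0.16 in hippocampus and 13.04 ± 0.20 in brainstem, a difference of 0.31 with overlapping arrays. The widest Cacnb4 difference became 0.57 after quantile normalization and 0.67 after median centring, where Cacng6 (0.29 and 0.24) and Scn8a (0.40 and 0.35) differed less. The next brightest probe set of Cacnb4 gave a striatum minus brainstem difference of 0.93.

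The gamma family showed the most varied orders. Cacng3, a TARP, was 10.43 ± 0.18 in striatum and 9.67 ± 0.21 in hippocampus but 5.83 ± 0.21 in brainstem, a 24.1-fold striatum to brainstem difference. Cacng2 (stargazin), the founding TARP, was highest in brainstem at 10.51 ± 0.12, with 9.69 ± 0.19 in hippocampus and 9.06 ± 0.29 in striatum. Cacng4, another TARP, was highest in striatum at 10.73 ± 0.28 and 5.06-fold lower in hippocampus (8.39 ± 0.15), with 9.07 ± 0.20 in brainstem. Cacng5, a TARP relative with other effects on AMPA receptor gating, was lowest in striatum at 4.79 ± 0.98, with 6.73 ± 0.33 in hippocampus and 7.77 ± 0.33 in brainstem. Cacng6, a relative of the muscle gamma subunit, lay just above the 40th percentile in all tissues (3.81 ± 0.72, 3.42 ± 0.23 and 3.46 ± 0.23), and its hippocampus mean rests on C3H HeJ, described below. Its hippocampus minus striatum difference of 0.39 was not called under median centring.

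A second probe set bore on most of these orders. Where a called member had a tested next brightest probe set, that set had the same sign for 15 of 17 members between hippocampus and striatum, 16 of 17 between hippocampus and brainstem and 18 of 19 between striatum and brainstem. It was also called in that direction for 13, 16 and 17 of them. Scn1a and Scn2a in the first pair and Cacna2d4 in the third had the same sign without a call. The exceptions in sign were Cacna1a and Cacna1d in the first pair, Cacna2d4 in the second and Cacna1a in the third. Leaving out the C3H HeJ brainstem array or the 3 striatum arrays changed no tissue call of a member.

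Strain had a smaller reach. The widest range of strain means that a member had in any tissue was 0.56 in the median over 28 members, while the median range of tissue means was 1.83. In the deposited scaling and with the brightest probe sets, the strain range was the wider only for Cacnb4 (0.67 against 0.31) and Cacng6 (1.89 against 0.39). The same comparison was not made for all genes. For Cacnb4 the strain range in striatum was 0.13 with the mean of its probe sets and 0.25 with the next brightest, neither of them called. Over all 6 strains 9 members were called in hippocampus (limma, adjusted p under 0.05), 9 in striatum and 5 in brainstem, beside 31.2%, 26.2% and 23.0% of all genes tested. Out of 28 these counts are near the background. The median range of strain means was 0.26 for members and 0.27 for all genes in hippocampus, 0.49 and 0.36 in striatum, and 0.38 and 0.30 in brainstem. In all, 14 members were called in at least 1 tissue, and Scn4b and Cacng6 in all 3. Without the tested C57L/J striatum array 14 members were called in striatum, where the share of all genes is not given. Without the C3H HeJ brainstem array with cerebellar markers 12 were called in brainstem, beside 37.7% of all genes. Without the 3 striatum arrays with high thalamic markers 10 members were called in striatum, beside 23.5% of all genes. C57L/J then keeps 1 striatum array, which is assumed to vary like the other groups.

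Most calls against C57BL6/J came from C3H HeJ. Its arrays differed in 4 members in hippocampus, 5 in striatum and 8 in brainstem, beside 18.0%, 17.6% and 19.3% of all genes. BalbC/J differed in 2 members in each tissue, beside 15.1%, 7.68% and 12.3%. C57BL10/J differed in 1, 0 and 0 members, beside 2.25%, 0.536% and 2.75%. C57BLKS/J differed in 1, 0 and 1, beside 5.57%, 2.18% and 2.74%, and C57L/J in 1, 0 and 0, beside 4.39%, 4.30% and 3.28%. These are 27 calls of 14 members, 7 of them over 2-fold, and all comparisons share the C57BL6/J arrays. Without the C3H HeJ brainstem array with cerebellar markers the calls of the other strains rose over the 3 tissues: BalbC/J had 12 in place of 6, C57BL10/J 6 in place of 1, C57BLKS/J 4 in place of 2 and C57L/J 4 in place of 1. The share of all genes called in brainstem for these strains was then 25.3%, 12.2%, 7.73% and 9.14%.

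**Figure D2:**
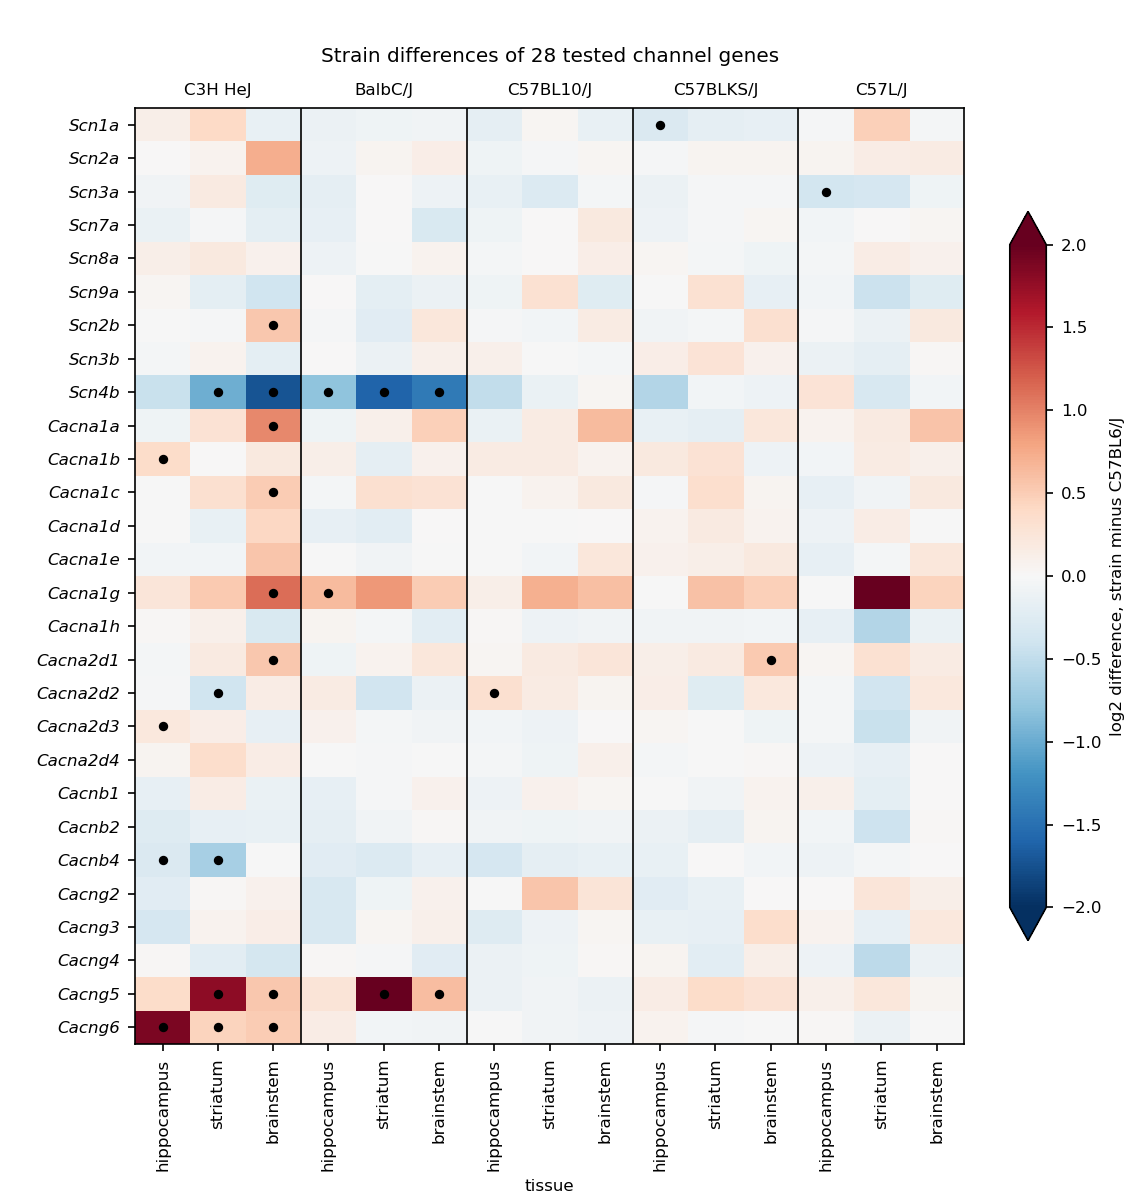
Log2 difference of each strain from C57BL6/J in each tissue for the 28 tested members (colour scale from -2 to 2). Dots mark the 27 calls at an adjusted p under 0.05. Scn4b is lower in C3H HeJ and BalbC/J, Cacng6 higher in C3H HeJ and Cacng5 higher in both in striatum.

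Scn4b was lower in C3H HeJ and BalbC/J. In brainstem the 3 arrays (tested, then untested) read 10.84, 10.95 and 10.12 in C3H HeJ and 10.88, 10.94 and 11.00 in BalbC/J. The 12 arrays of the 4 strains with C57 names had 12.23 to 12.43 there. The groups did not overlap, and the gap between them was wider than the spread inside the C57 arrays. The C3H HeJ minus C57BL6/J difference was -1.72 (SE 0.147, 3.30-fold, limma adjusted p = 2.04e-06), or -1.46 without the array with cerebellar markers. The BalbC/J difference was -1.42 (2.67-fold, limma adjusted p = 1.70e-05). Cerebellar markers were higher on the brainstem arrays of both strains than on those of C57BL6/J, and their part in the Scn4b differences was not tested.

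In striatum Scn4b read 13.16, 13.07 and 13.29 in C3H HeJ, 12.11, 12.51 and 13.05 in BalbC/J, and 14.01, 14.26 and 14.17 in C57BL6/J. All 6 arrays of the first 2 strains (12.11 to 13.29) were below all 12 of the others (13.56 to 14.26). The BalbC/J difference was -1.59 (3.02-fold, limma adjusted p = 3.10e-05), or -1.40 without the 3 arrays with high thalamic markers, of which the lowest BalbC/J array is 1. The C3H HeJ difference was -0.98 (SE 0.170, limma adjusted p = 0.00154). The striatal marker list had strain means of 13.65 (C3H HeJ), 13.60 (BalbC/J) and 13.67 (C57BL6/J). The part of cell makeup in the Scn4b difference was not tested.

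In hippocampus, where Scn4b is dim, the strains overlapped. C57L/J read 6.94, 6.22 and 6.46, C57BL6/J 6.51, 5.89 and 6.41, BalbC/J 5.25, 5.85 and 5.29 and C3H HeJ 5.81, 5.83 and 5.81. C57L/J and C57BL6/J hold the highest arrays, while C57BL10/J and C57BLKS/J lay between 5.62 and 5.82 beside C3H HeJ. The BalbC/J difference was -0.81 (SE 0.188, limma adjusted p = 0.00846), which makes Scn4b the member called lower in BalbC/J in all 3 tissues. The 6-strain ranges were 1.08, 1.59 and 1.76 in hippocampus, striatum and brainstem (limma adjusted p = 0.00323, 3.43e-05 and 7.22e-07). Scn4b has 1 probe set on the array, and a strain difference in the probed sequence was not tested.

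**Figure D3:**
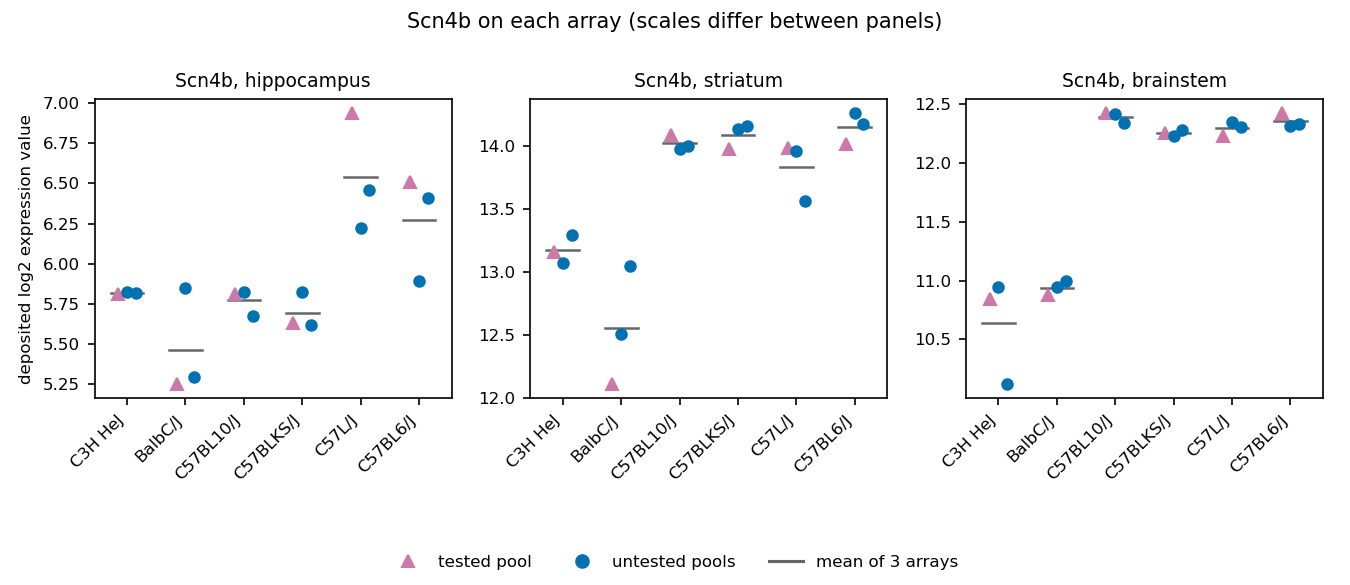
Log2 signal of Scn4b on each of the 54 arrays, by strain in hippocampus, striatum and brainstem, with PPI-tested and untested pools marked. In brainstem the C3H HeJ and BalbC/J arrays reach 11.00 at most and the other arrays start at 12.23, while in hippocampus the strains overlap.

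Cacng6 was higher in C3H HeJ in every tissue. In hippocampus the C3H HeJ arrays read 5.29, 5.09 and 5.66, against 3.22 to 3.82 on the other 15 arrays. In striatum C3H HeJ had 3.69 to 4.13 against 3.19 to 3.51, and in brainstem 3.67 to 4.15 against 3.23 to 3.48. No other array reached the C3H HeJ arrays of its tissue. The difference from C57BL6/J was 1.89 in hippocampus (SE 0.138, 3.71-fold, limma adjusted p = 1.29e-07), 0.45 in striatum (limma adjusted p = 0.0114) and 0.50 in brainstem (limma adjusted p = 0.00197), or 0.51 there without the array with cerebellar markers. The arrays of the other strains lie near the 40th percentile, so these folds are taken against a near-background level. Of the 2 probe sets of Cacng6 only this one rose above that level.

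Cacng5 was higher in C3H HeJ and BalbC/J in striatum, where the gene is dimmest. C3H HeJ arrays read 6.00, 5.82 and 5.76 and BalbC/J arrays 6.79, 5.54 and 5.98, while the 12 C57 arrays ran from 3.31 over a median of 4.14 to 5.25. The groups did not overlap. The difference from C57BL6/J was 1.79 in C3H HeJ (SE 0.395, 3.46-fold, limma adjusted p = 0.00677) and 2.04 in BalbC/J (4.10-fold, limma adjusted p = 0.00478). The highest BalbC/J array is the one with high thalamic markers, and the BalbC/J difference was 1.67 (limma adjusted p = 0.00104) without the 3 such arrays. In brainstem the 6 arrays of these strains read 7.85 to 8.42 against 7.22 to 7.96 on the C57 arrays, which overlap. The differences there were 0.55 (limma adjusted p = 0.0283) and 0.61 (limma adjusted p = 0.0206), and that of C3H HeJ was 0.35 (limma adjusted p = 0.0796) without the array with cerebellar markers and was also not called under the other scalings. Cerebellar markers were also higher on the BalbC/J brainstem arrays (9.50 to 10.50) than on those of C57BL6/J (8.56 to 8.95), and their part in the BalbC/J difference was not tested. In hippocampus 6.64 to 7.23 faced 5.96 to 7.16, with no call. The second probe set of Cacng5 was too dim to test.

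Cacna1g showed strain differences in hippocampus and single high arrays in striatum. In hippocampus BalbC/J read 9.30, 9.26 and 9.23 and C57BL6/J 8.67, 8.54 and 8.70, and no array of another strain exceeded 9.05. The BalbC/J difference was 0.63 (limma adjusted p = 0.00127). Thalamic markers were 0.72 and 0.95 above the hippocampus median on 2 of the BalbC/J arrays and -0.39 from it on the third, and 1.01, -0.08 and -0.07 from it on the C57BL6/J arrays. Their part in the Cacna1g difference was not tested. In striatum the 3 highest arrays were the untested C57L/J pools at 6.28 and 6.33 and the tested BalbC/J pool at 5.50, against 2.53 to 4.13 on the other 15. These are the 3 arrays with the highest thalamic markers, and cortical markers lay 0.60, 1.52 and 1.01 above the striatum median on them. Cortical markers were also 0.84 and 0.59 above it on the second untested C57BLKS/J and the first untested C57BL10/J array, where Cacna1g read 4.13 and 3.89. The part of other tissue in these values was not tested, and no strain was called for Cacna1g in striatum.

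**Figure D4:**
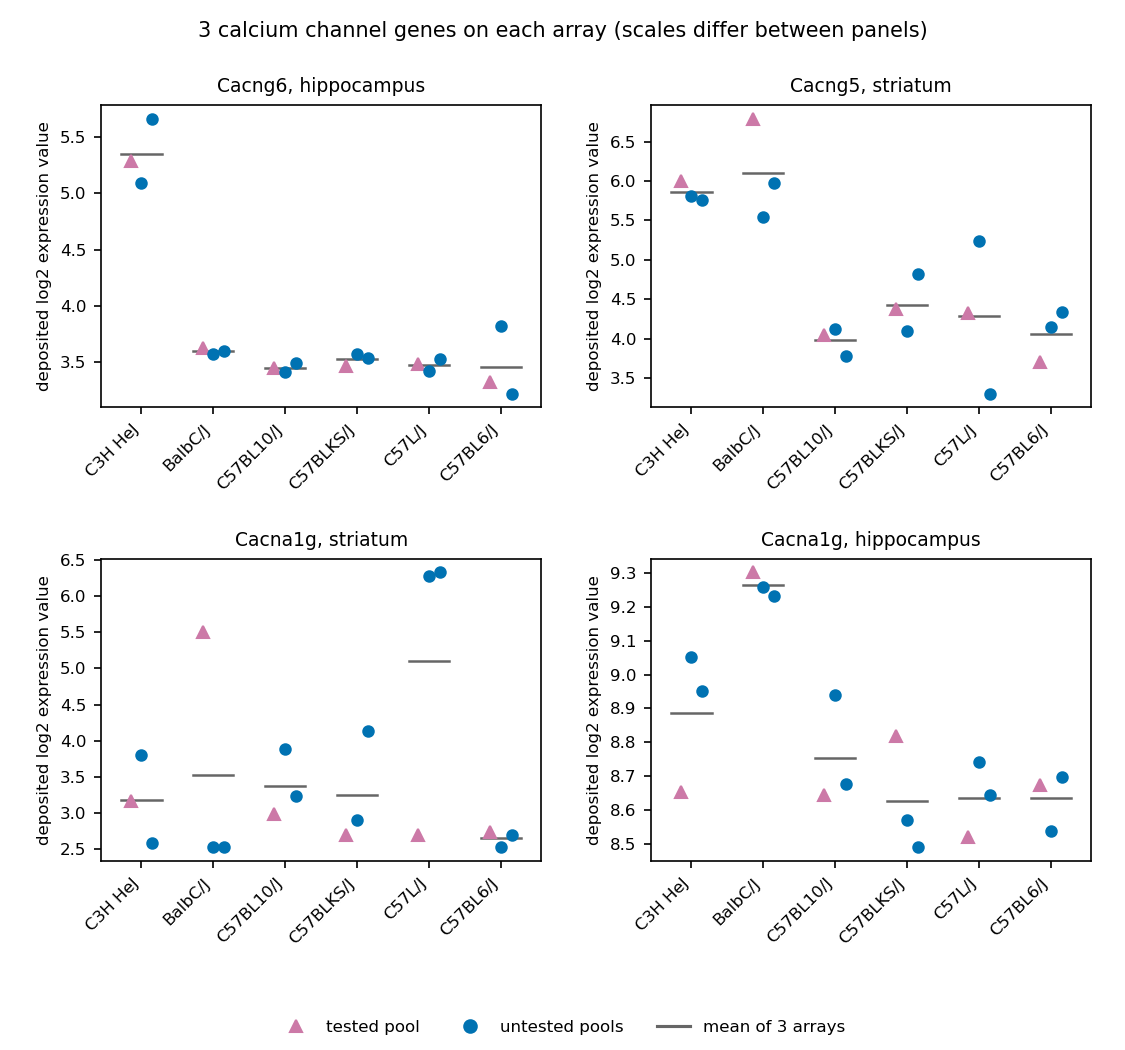
Log2 signal per array by strain for Cacng6 in hippocampus, Cacng5 in striatum and Cacna1g in striatum and in hippocampus. Cacng6 is at 5.09 to 5.66 in C3H HeJ only, Cacng5 is above 5.5 in C3H HeJ and BalbC/J only, and Cacna1g in striatum is above 5 on 3 single arrays.

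In C3H HeJ brainstem 7 of the 8 called members were higher than in C57BL6/J, and Scn4b was lower, beside 11.6% of all genes higher and 7.71% lower. For the calcium channel pores the difference was carried in large part by the array with cerebellar markers. Cacna1a read 9.37, 9.44 and 10.85 in C3H HeJ against 9.01, 9.01 and 8.77 in C57BL6/J. Cacna1g read 8.94, 9.07 and 10.67 against 8.31, 8.65 and 8.39. The last C3H HeJ array is far above the other 2 in each case, and those are still above all C57BL6/J arrays. Cerebellar markers on those 2 arrays were at 9.66 and 9.20, also above the C57BL6/J arrays (8.56 to 8.95), and their part in what is left of the difference was not tested. The differences of 0.96 (limma adjusted p = 0.0304) and 1.11 (limma adjusted p = 0.0238) became 0.47 and 0.56 without that array, and both stayed called. In that fit C57BL10/J differed from C57BL6/J by 0.63 for Cacna1a and 0.61 for Cacna1g, both called. BalbC/J differed by 0.48 and 0.51 and C57L/J by 0.57 and 0.44, all called. C57BLKS/J was called for Cacna1g (0.47). The excess of these pores over C57BL6/J was thus not particular to C3H HeJ. The C3H HeJ difference of Cacna1c (0.51) became 0.26 and was no longer called. Scn2b (0.55) became 0.29, still called, but its next brightest probe set had a difference of -0.12. Cacna2d1 changed little: C3H HeJ arrays read 10.27, 10.29 and 10.43 and C57BL6/J arrays 9.72, 9.76 and 9.90, a difference of 0.54 (limma adjusted p = 0.000204) that became 0.48. Without the array 8 members were called, beside 21.5% of all genes, with Cacnb4 (-0.32) and Scn2a (0.26) in place of Cacna1c and Cacng5. The 6-strain test then called 37.7% of all genes, beside 12 members.

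**Figure D5:**
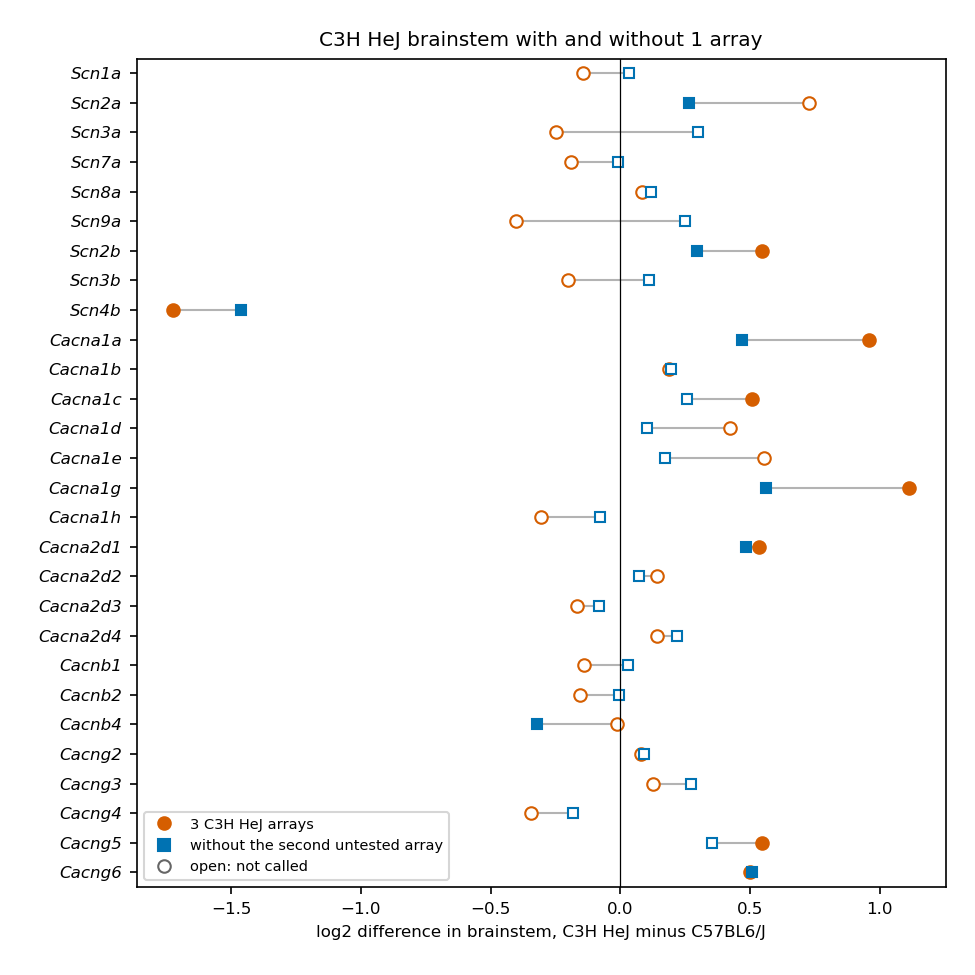
Difference of C3H HeJ from C57BL6/J in brainstem for the 28 tested members, with all 3 C3H HeJ arrays and without the second untested one, in log2 units. Open symbols were not called. Cacna1a, Cacna1g and Cacna1c shrink without the array, while Scn4b stays far below 0 at -1.46.

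The other C3H HeJ calls were under 2-fold. Cacna1b in hippocampus read 11.54, 11.62 and 11.67 and was 0.36 above C57BL6/J (limma adjusted p = 0.00975), and its next probe set was 0.23 above (limma adjusted p = 0.0307). Cacna2d3 was 0.21 above in hippocampus (limma adjusted p = 0.0426). That call was lost with no filter, after median centring and without the intensity trend (limma adjusted p up to 0.231). In striatum the Cacna2d2 difference was -0.40 (limma adjusted p = 0.0479). It was not called with no filter, with the mean of its probe sets (-0.13), without the intensity trend or without the term for testing. Cacnb4 in striatum read 12.88, 12.80 and 12.94, at the low end of a tissue where every other array was at 12.94 or above, with a difference of -0.66 (limma adjusted p = 0.00243), and in hippocampus it was -0.29 (limma adjusted p = 0.0443). The next probe set of Cacnb4 had differences of 0.15 and -0.01, so this decrease rests on 1 probe set, and the hippocampus call was lost under 6 of 9 alternatives.

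Among the strains with C57 names, few members were called. Scn3a in C57L/J hippocampus read 10.50, 10.56 and 10.47 against 10.81, 11.01 and 10.81 in C57BL6/J, with no overlap and a difference of -0.36 (limma adjusted p = 0.0165). Scn1a in C57BLKS/J hippocampus read 11.72, 11.48 and 11.48 against 11.81, 11.87 and 11.85, a difference of -0.28 (limma adjusted p = 0.00911), while its next probe set gave 0.12. Cacna2d1 in C57BLKS/J brainstem read 10.37, 10.37 and 10.23, a difference of 0.53 (limma adjusted p = 0.000755), and on the next probe set 0.18 (limma adjusted p = 0.553). Cacna2d2 in C57BL10/J hippocampus read 10.33, 10.17 and 10.28 against 10.04, 9.85 and 9.94, a difference of 0.32 (limma adjusted p = 0.0362). In each of these the arrays of the named strain did not overlap those of C57BL6/J.

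The C57L/J striatum depended on its arrays. No member was called with all 3, and 10 were called without the tested array, beside 15.3% of all genes. Cacna1g (3.76), Scn1a (0.62) and Cacna2d1 (0.42) were then higher than in C57BL6/J. Cacna1h, Cacna2d2, Cacna2d3, Cacng4, Scn2b, Scn3a and Scn3b were lower, with Cacna1h at -0.91 the farthest. The 2 arrays left are those with high thalamic markers, and on the second of them the striatal markers differed from the tissue median by -0.96; the part of tissue makeup was not tested.

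Further members were called across the 6 strains without a large difference from C57BL6/J. In striatum Cacng2 had a range of strain means of 0.71 (limma adjusted p = 0.0226), with C57BL10/J highest at 9.49, 9.80 and 9.27. It was not called with the mean of its probe sets or the next brightest one (limma adjusted p up to 0.222), and Cacna2d2 not with the mean. Scn1a had 0.67 there (limma adjusted p = 0.0247), with C3H HeJ at 11.70, 11.75 and 11.87 and C57L/J at 11.48, 11.65 and 12.42. Cacna2d3 had 0.58 (limma adjusted p = 0.0384), Cacna2d2 0.57 (limma adjusted p = 0.0138) and Cacna1b 0.47 (limma adjusted p = 0.00800). For Cacna2d3 the C57L/J arrays read 13.19, 12.96 and 12.49 against 13.40, 13.51 and 13.47 in C3H HeJ. Without the 3 arrays with high thalamic markers the Cacna2d3 range was 0.27 and no longer called (limma adjusted p = 0.134), and that of Scn1a was 0.62 (limma adjusted p = 0.000325). The Cacna2d3 call was also lost with no filter, after median centring and with a model term for replicate number. In hippocampus Cacna1b ranged over 0.41, Scn1a over 0.40, Cacna2d2 and Scn3a over 0.36, Cacna2d3 over 0.27 and Cacna1e over 0.24. The calls of Cacna1b, Scn1a, Cacna2d2, Scn3a and Cacna2d3 there were lost with the mean of probe sets. That of Cacna2d3 was lost under 5 of 9 alternatives and that of Scn3a under 4 of 8. In brainstem Scn8a ranged over 0.22 (limma adjusted p = 0.0440), with C57BLKS/J lowest at 12.50, 12.54 and 12.61, and this call was lost under 6 of 9 alternatives (limma adjusted p up to 0.118).

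Whether strain differences themselves differed between tissues was tested with the strain by tissue term, which called 7 members beside 17.4% of all genes: Cacng6, Scn4b, Cacna1b, Cacna2d2, Cacng5, Cacna2d1 and Cacna2d3. Cacng6 (limma adjusted p = 1.96e-07) had its C3H HeJ excess mainly in hippocampus. Scn4b (limma adjusted p = 1.55e-05) had similar BalbC/J differences in striatum and brainstem, -1.59 and -1.42, and -0.81 in hippocampus. Cacna1b (limma adjusted p = 0.00435) had its highest strain in hippocampus in C3H HeJ, and in striatum C57BLKS/J at 10.92, 11.12 and 10.98 stood above BalbC/J at 10.50, 10.48 and 10.64. The alpha2delta subunits made up 3 of the 7. Without the tested C57L/J striatum array the term called 12 members, and also 12 without the first untested C3H HeJ brainstem array. The share of all genes called in these fits is not given.

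Testing for prepulse inhibition left no called member in any tissue, beside 0% of all genes. At an unadjusted p under 0.05, limma gave 3 hippocampus members, 2 striatum members and 0 brainstem members of 28, beside 3.96%, 3.79% and 2.25% of all genes. The smallest p-values belonged to Scn1a (0.11, with a limma p of 0.0105 before adjustment), Cacna1a (-0.22) and Cacng4 (-0.14) in hippocampus, given as tested minus untested, to Cacnb4 (-0.17), Cacna1b (-0.11) and Cacna2d4 (0.17) in striatum, and to Scn7a (-0.20), Cacna1b (0.08) and Cacna1h (0.11) in brainstem. With 1 tested pool per strain, 6 tested arrays stood against 12 untested ones in each tissue.

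A list of channel partners, proteins that bind, anchor or regulate these channels, held 44 genes of which 39 were measured. Hippocampus had 13 of 34 tested partners called across strains, striatum 5 of 33 and brainstem 9 of 34, beside the 31.2%, 26.2% and 23.0% of all genes. Fgf14, an intracellular FGF that binds sodium channel alpha subunits, was lowest in C57L/J. Its hippocampus arrays read 8.09, 7.90 and 7.65 there against 11.20, 11.30 and 11.06 in C57BL6/J, and no other strain was below 10.96. The differences were -3.30, -2.40 and -2.21 in hippocampus, striatum and brainstem, all called. On the next probe set the 6-strain ranges of 0.72 in striatum and 1.00 in brainstem were not called (limma adjusted p = 0.446 and 0.0596). In hippocampus the 6-strain range of 3.35 was as low as 0.66 under the alternatives, and it stayed called in all 9. Ryr1, an intracellular calcium release channel, was 7.02 in C57L/J striatum against 9.72 in C57BL6/J, a difference of -2.70. The C57L/J arrays read 8.07, 7.10 and 5.90, and the lower 2 are those with high thalamic markers. Without the 3 such arrays the C57L/J striatum differences were -1.73 for Ryr1 (limma adjusted p = 0.0193) and -1.98 for Fgf14. For Ryr1 the C3H HeJ hippocampus difference was -0.77. Fgf11, a relative of Fgf14, had differences of -1.03 in BalbC/J and -0.80 in C57BLKS/J striatum. Scnm1, a splicing factor that modifies the severity of a sodium channel mutation in mice, was lower than C57BL6/J in hippocampus and brainstem of C3H HeJ (-0.66 and -0.61), BalbC/J (-0.79 and -0.42) and C57BLKS/J (-0.77 and -0.51). Nedd4l, a ubiquitin ligase for sodium channels, and Rims1, an active zone protein, ranged over 0.45 and 0.34 in hippocampus. With the next brightest probe set neither was called (limma adjusted p = 0.180 and 0.392), and Nedd4l not with the mean either. Stac2, an adaptor of L-type channels, ranged over 0.83 and Ank3 (ankyrin-G, the anchor of sodium channels at the axon initial segment) over 0.20 in brainstem, and Ank3 was not called with the mean of its probe sets or the next brightest. Without the array with cerebellar markers the Stac2 range was 0.62 and the C3H HeJ difference of Scnm1 -0.52, both called. Between tissues 31, 33 and 34 of 35 tested partners differed, for hippocampus and striatum, hippocampus and brainstem, and striatum and brainstem, beside 87.1%, 85.4% and 89.1% of all genes.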

How the data were processed

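Affymetrix mouse 3' arrays were measured for 54 pooled RNA samples. The authors deposited 1 log2 signal per probe set and array, already normalized. The tools named are, per the submitters' processing notes, R 2.6.1, affy 1.16.0, RMA, GCRMA 2.10.0 and limma 2.12.0. The sources used here do not say whether RMA or GCRMA made these values, and they give no scan or hybridization batch.

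Of 45101 probe sets, 64 controls were set aside. For each of 18193 genes named in the platform annotation, the probe set with the highest mean of the 54 arrays was kept. Genes entered a fit if 3 or more of its arrays had them over the 40th percentile of that array. Limma 3.58.1 in R 4.3.3 fitted strain and testing within each tissue (18 arrays), and strain within tissue with testing within tissue over all 54 arrays. Its moderated tests used an intensity trend and were two-sided. P-values were adjusted by Benjamini-Hochberg over all genes of a comparison, and those under 0.05 were called. The code was tested on simulated data.

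The members and the gene lists were chosen with earlier results of these data known. Named with values are, in each tissue, the 8 called members with the widest range of strain means, members called over 2-fold or the same way in all 3 tissues against C57BL6/J, the 12 largest and 3 smallest called tissue differences, members called by strain and tissue, the 3 smallest p for testing, the 5 brightest and 5 dimmest members, up to 4 called partners by p and Scnm1. Further members are named to account for their subunit class. Alternatives changed the filter, the scaling, the probe set, the model terms and the arrays included. The shared mice of a strain make cross-tissue p-values inexact. Replicate numbers were no term of the models: the deviations of same-numbered arrays correlated over 0.1 in 4, 9 and 1 of 18 pairs for the 3 pairs of tissues.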

Additional observations from a re-analysis of the deposited data

Results flagged for a closer look

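The strain differences of 7 members differed between tissues by the test of the strain by tissue term itself (limma, adjusted p under 0.05 over all genes tested). For Cacng6 the adjusted p was 1.96e-07. The C3H HeJ excess was 1.89 on the log2 scale in hippocampus, 0.45 in striatum and 0.50 in brainstem. For Scn4b the adjusted p was 1.55e-05, with C3H HeJ differences of -0.98 in striatum and -1.72 in brainstem. For Cacna1b it was 0.00435, for Cacna2d2 0.00921 and for Cacng5 0.0147. For Cacna2d1 it was 0.0211 and for Cacna2d3 0.0213. The call of Cacna2d1 was lost after median centring and with the mean of probe sets. Those of Cacna1b and Cacna2d2 were lost with the mean or the next brightest probe set (limma adjusted p up to 0.494 and 0.955). These p-values treat arrays of different tissues as independent, although the tissues of a strain shared mice.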

How the results depend on the processing

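With the next brightest probe set of each gene, the 6-strain test called 4 members of striatum and 1 of brainstem. The strain by tissue test called 3. Many second probe sets lay under the filter, so fewer members were tested there. The numbers tested and the shares of all genes called are not given for these fits. Their counts are therefore not comparable with those of the brightest probe sets. Over the 3 tissues together, C57BL10/J had 1 member call and 0 without the filter, after median centring, with the mean of probe sets and with the next brightest. C57BLKS/J had 2 calls, 0 with the mean of probe sets and 1 with the next brightest. C57L/J had 1, which became 2 at the 60th percentile filter and 0 after median centring or with the next brightest. Leaving out 1 array at a time, the 6-strain test called 6 to 11 members for hippocampus, 7 to 14 for striatum and 4 to 12 for brainstem. The totals were 12 to 21 for C3H HeJ, 5 to 12 for BalbC/J, 0 to 6 for C57BL10/J, 1 to 4 for C57BLKS/J and 0 to 11 for C57L/J. Tissue calls in these runs numbered 24 to 26 (hippocampus against striatum), 25 to 25 (hippocampus against brainstem) and 27 to 27 (striatum against brainstem). The strain by tissue test gave 7 to 12, and testing 0 to 0 in each tissue. For most of these runs the share of all genes called is not given. The upper ends came without the tested C57L/J striatum array (14 in striatum, 11 for C57L/J, 12 by strain and tissue), the second untested C3H HeJ brainstem array (12 in brainstem, 12 for BalbC/J, 6 for C57BL10/J, 4 for C57BLKS/J) or the first (12 by strain and tissue). Without the first untested C57BL6/J hippocampus array C57BLKS/J had 4, C57L/J 0 and C57BL10/J 0. The 1 call of C57BL10/J was also lost without the second untested C57BL6/J array, the tested BalbC/J array, or the tested or second untested C57BL10/J array of hippocampus, and that of C57L/J without its tested or second untested hippocampus array. Among the values followed through each alternative, the reversed ones all came from other probe sets. Called strain differences among them were Scn1a in C57BLKS/J hippocampus (0.12), Cacnb4 in C3H HeJ striatum (0.15) and Scn2b in C3H HeJ brainstem (-0.018 with the mean, -0.12 with the next brightest). The rest were the uncalled testing values of Cacng4 (0.041), Cacna2d4 (-0.049), Scn7a (0.016) and Cacna1b (-0.027). Not followed there were the hippocampus minus striatum differences of Scn1a and Cacna1d, which turned under median centring. Where no value shows otherwise, the cause was not tested. With replicate number as a model term within each tissue, 9, 8 and 4 members were called across strains. With same-numbered arrays of a strain and testing group as a block over tissues, 25, 25 and 27 were called across tissues and 7 by strain and tissue. The term for replicate number ended 4 calls (Cacnb4 in C3H HeJ hippocampus, Cacna2d3 across strains in striatum, Scn8a across strains in brainstem, Cacna1c in C3H HeJ brainstem). Leaving out the 3 striatum arrays with the highest thalamic markers, an alternative chosen after seeing the data, gave 25, 25 and 27 tissue calls, 8 by strain and tissue and 10 across strains in striatum. The number of arrays, 3 per strain and tissue, limits the precision, and probe sets near the 40th percentile are close to background.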

Other observations

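The neighbouring sodium channel alpha genes on chromosome 2 fell into both of the opposite tissue patterns. Scn3a and Scn2a, which are next to each other among protein-coding genes of GRCm38.p6, were above brainstem in both forebrain tissues. Scn1a, Scn9a and Scn7a, 3 consecutive protein-coding genes of the same chromosome, were above both forebrain tissues in brainstem. On chromosome 11, Cacng4 had its highest value in striatum and its neighbour Cacng5 its lowest there. The positions were looked up after the tissue values were known, and no test was made of them.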
